A study of Homo sapiens with 4 samples.

Results

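IGFBP1, IGFBP2, IGFBP3, IGFBP4, IGFBP6, IGFBP7, IGF1R, IGF2R, IRS1 and IRS2 form the part of the insulin-like growth factor (IGF) axis described here, 10 genes of the 57905 in the files. They comprise 6 secreted binding proteins, 2 receptors and 2 receptor substrates. The genes were taken by symbol from a list that was chosen by reading earlier results of these libraries, their FPKM and the differences between GMI and control among them. Those differences are therefore a description and support no claim about the family. They are given without p-values, only with whether each passed a threshold in the fit across all genes. Of the 10 genes 8 matched the RefSeq promoter table used here, all but IGFBP1 and IGFBP7.

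RNA came from A549, an established human lung adenocarcinoma line, grown in DMEM with 10% fetal bovine serum. The 2 control libraries carry the label control and the time 24 h, with no dose. The 2 GMI libraries came from cells treated for 24 h with 0.6 µM GMI, an immunomodulatory protein that derives from the fungus Ganoderma microsporum. Serum itself contains IGFs, binding proteins and insulin, and both groups were grown in it, so the RNA levels below are those of cells in serum. Whether libraries with the same treatment stem from different cultures is not stated, so the tests rest on differences between libraries that may be technical.

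IGF1 and IGF2 are ligands of IGF1R, a tyrosine kinase that phosphorylates the docking proteins IRS1 and IRS2 and so recruits PI3 kinase, which activates AKT. The binding proteins hold IGFs outside the cell, either keeping them from the receptor or prolonging their life, and proteases release them again. IGF2R has no kinase: it takes IGF2 to the lysosome and also carries lysosomal enzymes that bear mannose 6-phosphate. AKT excludes FOXO transcription factors from the nucleus, and IGFBP1 and IRS2 are textbook FOXO-activated genes of the liver that insulin represses.

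Values are FPKM, fragments per kilobase of gene, scaled to library size. The gene lengths used are not given. Orders, sums, shares and ratios between genes below hold only as far as those lengths fit the RNAs made. Library denominators read from the steps of the values lay between 20560000 and 24090000 fragments. All 10 genes passed the filter of at least 1 FPKM in at least 2 libraries, which left 11598 genes for the test. The keratins KRT8 and KRT18 and the enzymes ALDH1A1 and AKR1B10, known to be high in A549, were at 545.95 FPKM or more in every library, and of the same lists ALDH3A1 and AKR1C1 lay between 56.27 and 194.43 FPKM. The other epithelial markers were low, CDH1 at 1.96 to 2.55, KRT19 at 0.36 to 0.96 and EPCAM at 0.29 to 0.35 FPKM. Of the markers of other cells, the 4 alveolar and lung lineage, 5 fibroblast, 2 measured endothelial and 4 liver genes summed to at most 1.35 FPKM per list and library. Of 4 leukocyte markers PTPRC and CD3E were listed at 0 in every library, and CD14 rose from 2.06 ± 0.078 to 4.11 ± 0.707 FPKM (mean ± SD, n = 2 per group, the form used throughout). The summed leukocyte markers were 2.21 and 2.08 FPKM in the controls and 4.79 and 3.74 FPKM after GMI. KRT18, ALDH1A1 and ALDH3A1 fell and AKR1C1 rose after GMI, with ALDH1A1 at 1845 ± 4.24 FPKM in the controls and 1079 ± 16.8 FPKM after it. The part of these shifts in the results below was not tested.

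In control cells the binding proteins covered a wide range of levels. IGFBP4, an inhibitory carrier of IGFs, stood at 1347.5 and 1331.62 FPKM and ranked 28th and 29th among the tested genes. IGFBP6, which prefers IGF2, and IGFBP3, the main carrier in serum, followed at 176 ± 11.4 and 136 ± 1.15 FPKM. IGFBP1 was next at 38.8 ± 0.643 FPKM. The receptor RNAs were far lower, IGF2R at 14.5 ± 1.56 and IGF1R at 12.5 ± 0.742 FPKM, and their libraries lay next to each other without overlapping. IGFBP2 (6.80 ± 0.148), IRS1 (6.01 ± 0.834), IRS2 (5.10 ± 0.014) and IGFBP7 (3.76 ± 0.311) closed the order. IRS1, at 5.42 and 6.60 FPKM, spread over most of the gap between IRS2 and IGFBP2, so the order of these 3 neighbours is not firm.

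**Figure D1:**
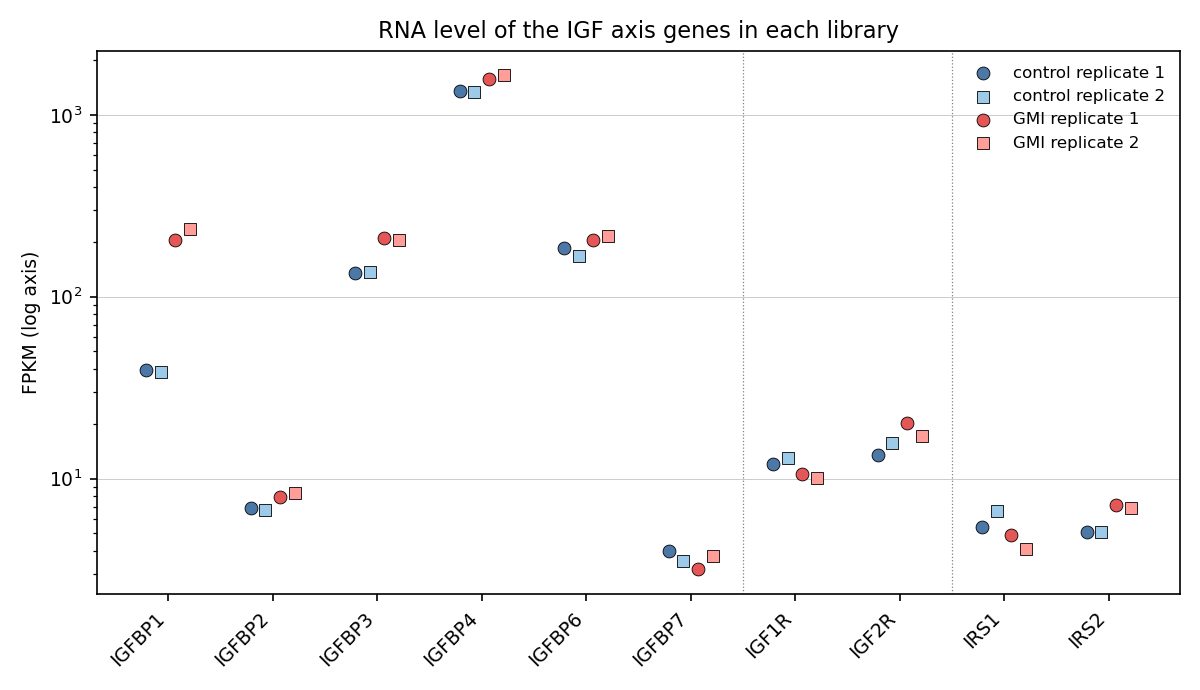
FPKM of the 10 genes in each of the 4 libraries, on a log axis; dotted lines part binding proteins, receptors and substrates. IGFBP1 moved from below 40 FPKM in the controls to above 200 FPKM after GMI, next to IGFBP3 and IGFBP6, while the group means of the other 9 differed by at most 1.53-fold.

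After GMI the RNA of 5 of the 10 genes was called higher in the fit across all genes (limma, adjusted p under 0.05), namely IGFBP1, IGFBP3, IGFBP4, IGFBP6 and IRS2. None was called lower (0 of 10). At an unadjusted p under 0.05 in the same fit 7 were higher and 2 lower, where 3733 of the 11598 tested genes reached that cut in either direction. Among all tested genes 9.30% were called higher and 6.12% lower. The groups did not overlap for 9 of the 10 genes, 7 higher and 2 lower after GMI, as they did not for 60.2% of all tested genes. These counts are read no further, because the genes were listed with this comparison known.

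IGFBP1 (ENSG00000146678, chromosome 7), whose product is a small secreted carrier of IGFs, had 39.3 and 38.39 FPKM in the controls and 203.89 and 234.16 FPKM after GMI. The lower GMI library was far above both controls, and the GMI libraries differed from each other by 13.8% of their mean against 2.34% for the controls. Its mean level was 5.64-fold higher after GMI, a log2 fold change of 2.46 (SE 0.077) on the log2(FPKM + 1) scale used for every log2 fold change here. On that scale 1 of the 11598 tested genes had a higher value; adding 1 shrinks the rises of genes near 0 FPKM, so this place is no ranking by fold. In rank of level IGFBP1 moved from places 1106 and 1124 among the tested genes to places 218 and 183. The call remained without any 1 of the 4 libraries, with log2 fold changes between 2.36 and 2.56, but not without the filter on low values. In RNA of whole cultures, a change in the number of cells that express a gene and a change in RNA per cell cannot be told apart.

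IGFBP3 (ENSG00000146674, chromosome 7), which circulates with IGF and the acid-labile subunit, had 134.96 and 136.58 FPKM in the controls and 209.27 and 205.03 after GMI. The libraries of a group differed by at most 2.05% of their mean, and the groups were well apart. The log2 fold change was 0.61 (SE 0.054), and 2.43% of tested genes had a higher one.

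IGFBP4, on chromosome 17 (ENSG00000141753), rose from 1347.5 and 1331.62 FPKM to 1571.94 and 1644.7 FPKM, a log2 fold change of 0.26 (SE 0.061). In absolute terms that difference, 269 FPKM, was larger than the 180 FPKM of IGFBP1. IGFBP6, on chromosome 12 (ENSG00000167779), had 184.44 and 168.32 FPKM in the controls and 204.92 and 215.85 after GMI (log2 fold change 0.25, SE 0.067). Its controls differed by 9.14% of their mean, and the groups did not overlap.

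The remaining binding proteins did not pass. IGFBP2 (ENSG00000115457, chromosome 2), a carrier with an integrin-binding motif, had 6.90 and 6.69 FPKM in the controls and 7.95 and 8.31 after GMI (log2 fold change 0.23, SE 0.071). IGFBP7 (ENSG00000163453, chromosome 4), a relative with low affinity for IGFs, had 3.98 and 3.54 FPKM in the controls and 3.17 and 3.74 after GMI (-0.10, SE 0.10), and its groups overlapped. IGFBP7 rested on the fewest fragments, about 134 in its lowest library, where counting alone gives an error of 8.64%. In addition 18.9% of its exon length overlaps genes of the other strand, which counting without a stated strand setting cannot separate.

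**Figure D2:**
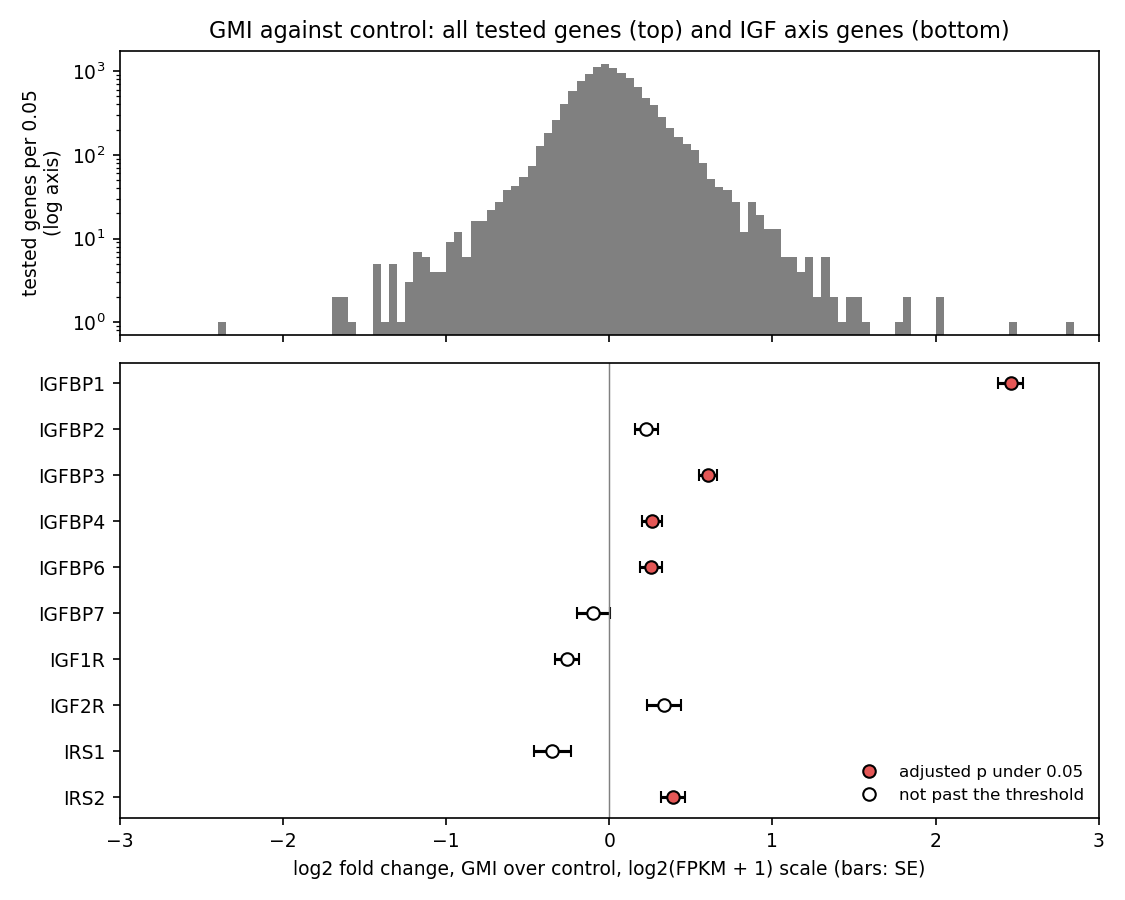
Top, the log2 fold changes (GMI over control) of all 11598 tested genes, with their number per bin on a log axis; bottom, those of the 10 genes with SE from the fit, filled where the adjusted p was under 0.05. IGFBP1 at 2.46 lies near the right edge of all genes, and the other 9 lie between -0.35 and 0.61.

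The calls of the smaller differences depended on single libraries and on the settings of the fit. The call of IGFBP3 was lost without control replicate 1 or without control replicate 2, those of IGFBP4 and IGFBP6 without any 1 of the 4 libraries. That of IRS2 was held only without GMI replicate 2. With either control left out 1 gene was called, without GMI replicate 1 there were 2, and without GMI replicate 2 there were 3. Without the mean-variance trend 3 genes were called, with IGFBP4 and IGFBP6 lost. The call of IGFBP6 was also lost when libraries were centred on their median log ratio. With a filter of 5 FPKM in 2 libraries 8 of 9 were called, adding IGF2R as higher and IGF1R and IRS1 as lower. Over all genes 1773 were called with that filter, out of fewer tested genes than the 11598 of the main fit. The shares of 9.30% and 6.12% are therefore no background for the 8 of 9.

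The stretch upstream of the start is shown for the called binding proteins with an entry in the promoter table of RefSeq, IGFBP3, IGFBP4 and IGFBP6, so that their letters can be compared. Each line is the 250 bases before the start on build GRCh38.p14, 5′ to 3′ on the gene's strand, while the deposited values were made on GRCh37. Capitals mark matches on either strand to any of the motifs searched. These were CAAAACA, the core of the insulin response sequence, and GTAAACA, a core bound by forkhead proteins. The hypoxia response core was searched as ACGTG and the AP-1 site as TGANTCA. The core promoter box was searched as TATAAA. The E-box was searched as CACGTG, which contains the hypoxia core.
IGFBP3 (chr7:45921273-45921522, minus strand): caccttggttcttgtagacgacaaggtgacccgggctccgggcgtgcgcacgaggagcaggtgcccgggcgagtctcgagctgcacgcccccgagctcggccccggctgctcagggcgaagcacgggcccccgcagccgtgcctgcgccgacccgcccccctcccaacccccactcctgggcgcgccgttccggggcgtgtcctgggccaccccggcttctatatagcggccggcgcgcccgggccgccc
IGFBP4 (chr17:40443200-40443449, plus strand): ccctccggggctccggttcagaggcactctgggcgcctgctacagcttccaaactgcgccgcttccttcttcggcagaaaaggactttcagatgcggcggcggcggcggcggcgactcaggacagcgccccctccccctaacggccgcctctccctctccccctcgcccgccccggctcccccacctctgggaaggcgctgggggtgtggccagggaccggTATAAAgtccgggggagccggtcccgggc
IGFBP6 (chr12:53097417-53097666, plus strand): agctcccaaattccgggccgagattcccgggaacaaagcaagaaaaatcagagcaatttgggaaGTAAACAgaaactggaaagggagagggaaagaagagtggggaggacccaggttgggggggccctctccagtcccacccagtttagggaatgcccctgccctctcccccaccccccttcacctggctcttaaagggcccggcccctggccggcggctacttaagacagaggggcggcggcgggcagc
IGFBP3 held none of the 6 motifs in this window, IGFBP4 a TATAAA from 29 to 24 bases before the start, and IGFBP6 a GTAAACA from 186 to 180 bases before it. Near its end the IGFBP3 window reads tatata, close to TATAAA but not among the letters searched. Of 35116 windows of this length in the table, 10.7% held TATAAA and 2.98% GTAAACA. A match of letters is no evidence that a factor binds.

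The makeup of binding protein RNA differed between the groups. The 6 binding proteins summed to 1717 and 1685 FPKM in the controls and to 2201 and 2312 FPKM after GMI. IGFBP1 made up 2.29% and 2.28% of that sum in the controls and 9.26% and 10.1% after GMI. The share of IGFBP4 went from 78.5% and 79.0% to 71.4% and 71.1%, although its own level rose. Of the mean increase of the sum, IGFBP4 accounted for 48.4%, IGFBP1 for 32.4%, IGFBP3 for 12.9% and IGFBP6 for 6.12%. Without IGFBP1, the other 5 summed to 1662 ± 21.9 FPKM in the controls and 2037 ± 56.8 FPKM after GMI.

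**Figure D3:**
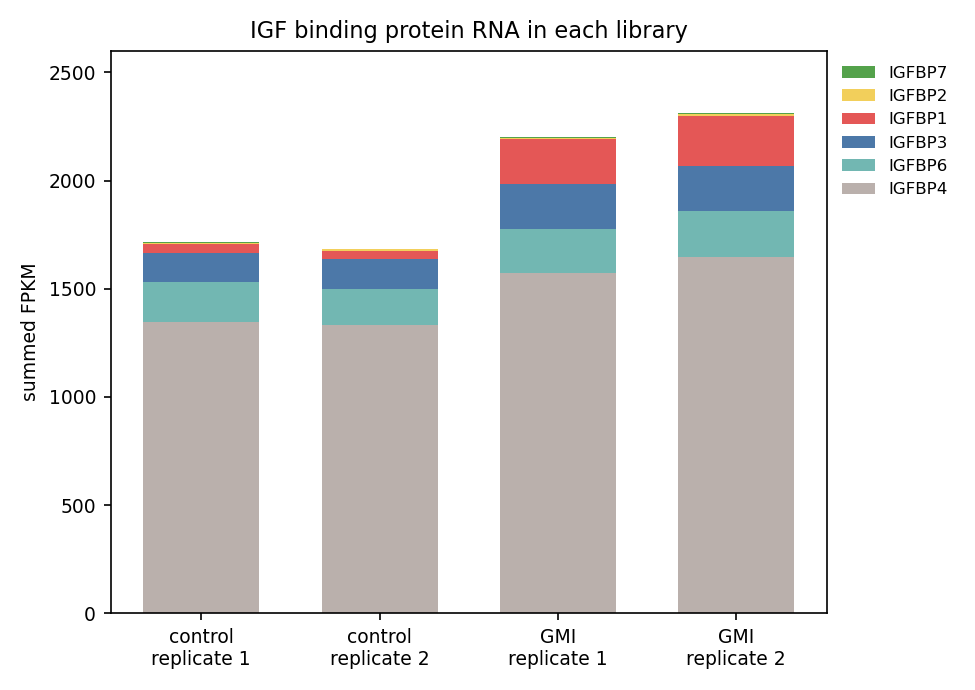
Stacked FPKM of the 6 binding proteins in each library, from 0. IGFBP4 is the largest part in every library, and the IGFBP1 segment grows from 39.3 and 38.39 FPKM in the controls to 203.89 and 234.16 FPKM after GMI.

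Within a library, IGFBP1 was level in FPKM with IGFBP3 and IGFBP6 only after GMI, a reading that depends on the gene lengths used. Its ratio to IGFBP3 was 0.291 and 0.281 in the controls and 0.974 and 1.142 after GMI, and its ratio to IGFBP6 went from 0.213 and 0.228 to 0.995 and 1.08. The GMI libraries of these 3 genes overlapped (IGFBP1 219 ± 21.4, IGFBP6 210 ± 7.73, IGFBP3 207 ± 2.998 FPKM), so no order among them can be given. The ratio of IGFBP1 to IGF1R was 3.28 and 2.95 in the controls and 19.3 and 23.4 after GMI.

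The receptors differed in opposite directions, and neither passed the test. IGF1R (ENSG00000140443, chromosome 15) had 11.98 and 13.03 FPKM in the controls and 10.57 and 10.02 after GMI (log2 fold change -0.26, SE 0.074). IGF2R (ENSG00000197081, chromosome 6) had 13.4 and 15.6 FPKM in the controls and 20.11 and 17.07 after GMI (0.34, SE 0.103), with libraries 15.2% and 16.4% of the mean apart within the groups. The gap between the higher control and the lower GMI library of IGF2R was smaller than the gap within either group. The ratio of IGF2R to IGF1R within a library was 1.12 and 1.20 in the controls and 1.903 and 1.704 after GMI.

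The substrates likewise parted. IRS1 (ENSG00000169047, chromosome 2), the first docking protein described for the insulin receptor, had 5.42 and 6.60 FPKM in the controls and 4.88 and 4.11 after GMI (log2 fold change -0.35, SE 0.113, not past the threshold). Its libraries within a group were 19.6% and 17.1% of the mean apart, the widest spread among the 10 genes. IRS2 (ENSG00000185950, chromosome 13), a docking protein with a large part in liver and beta cells, rose from 5.09 and 5.11 FPKM to 7.12 and 6.88 FPKM (0.39, SE 0.072). Its controls differed by only 0.392% of their mean, although about 852 fragments in the lowest library give a counting error of 3.43%. The ratio of IRS2 to IRS1 was below 1 in both controls, 0.939 and 0.774, and above 1 after GMI, 1.46 and 1.67.

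**Figure D4:**
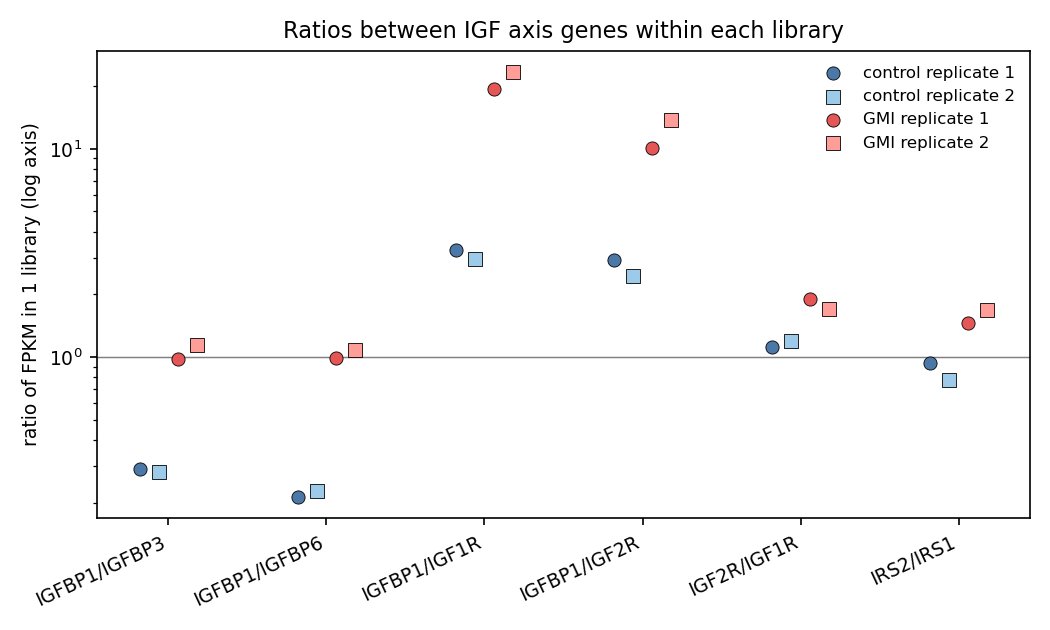
Ratios of FPKM between pairs of the 10 genes within each library, on a log axis, with a line at 1. In all 6 pairs both GMI libraries lie above both controls. Each pair has the gene with the higher log2 fold change on top, so that direction is no separate result. IRS2/IRS1 crosses 1, and IGFBP1/IGFBP3 and IGFBP1/IGFBP6 reach about 1.

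The 250 bases before the start of IRS2 are shown because IRS2 was the only called gene among the receptors and substrates, with the same motifs in capitals and from the same RefSeq table on GRCh38.p14.
IRS2 (chr13:109786584-109786833, minus strand): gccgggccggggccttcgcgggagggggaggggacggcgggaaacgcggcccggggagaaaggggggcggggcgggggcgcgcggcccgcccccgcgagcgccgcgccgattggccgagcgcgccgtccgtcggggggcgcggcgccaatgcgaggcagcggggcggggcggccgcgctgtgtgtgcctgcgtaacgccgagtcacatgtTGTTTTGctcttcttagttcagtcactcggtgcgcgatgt
The capitals, from 40 to 34 bases before the start, match CAAAACA on the opposite strand, a motif held by 4.30% of the 35116 windows. Among the 10 windows of the 8 genes with an entry it was the only match to that motif. The IGF2R window held CACGTG at 3 places, starting 132, 74 and 28 bases before the start, against 6.34% of windows with at least 1. The IGF1R window held 1 ACGTG, and the 3 windows of IGFBP2 and that of IRS1 held none of the 6 motifs. No window of these genes held TGANTCA.

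IGFBP1 and IGFBP3 are neighbours on chromosome 7 among protein-coding genes in GENCODE 29. Of the flanking protein-coding genes measured, TNS3, next to the pair, fell from 21.2 ± 1.52 to 14.9 ± 1.99 FPKM (log2 fold change -0.49), and HUS1 went from 5.21 ± 0.240 to 4.19 ± 0.283 FPKM (-0.26) without passing. RAMP3, ADCY1 and PKD1L1 were below the filter in every library. The protein-coding gene directly next to the pair on the side away from TNS3 had no values here. On that side the values start 2 genes away, at ADCY1. These flanking genes were chosen by position alone.

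Over the 4 libraries, the tested genes with a profile closest to that of IGFBP1 were MMP10, SNORD63, STC1, SMOC1 and RHCG. Likeness was the Euclidean distance between log2(FPKM + 1) values after the mean of the controls was taken off, and the distances were 0.62, 0.67, 0.93, 1.28 and 1.40. With the control mean taken off, this distance mostly restates the fold change on the log2(FPKM + 1) scale. MMP10 and SNORD63 passed the filter through the GMI libraries alone, and adding 1 shrinks their rises, so their nearness to IGFBP1 depends on that scale. None came close in level. MMP10, a matrix metalloproteinase, went from 0.295 ± 0.049 to 4.43 ± 1.29 FPKM. SNORD63, a small nucleolar RNA, was listed at 0 in both controls and at 3.36 and 2.82 FPKM after GMI. Per kilobase, the values of so short a gene rest on few fragments. SMOC1, a secreted matrix protein, and RHCG, an ammonium transporter, reached 13.7 ± 0.346 and 36.3 ± 2.89 FPKM.

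Lists of other genes of the pathway were drawn up by function, with earlier results of these data known. They held 113 distinct genes in 10 lists, of which 80 were tested. Of these 19 were called higher and 9 lower, beside 9.30% and 6.12% of all tested genes, and the median log2 fold change was 0.07 against -0.01 over all tested genes. The shares and that median are the background for each list below, and nothing is read from a list's count. For counts at an unadjusted p under 0.05 in limma, the background is 3733 of the 11598 tested genes, both directions together. Log2 values of genes near 1 FPKM depend on the added 1: with 0.1 added instead, FBXO32, KLHL24, FOXO4 and CTGF below come to 1.00, 1.15, 1.02 and -1.69. The ligands were near or at 0. IGF1 and INS were listed at 0 in every library, and IGF2 had 0.01 to 0.05 FPKM. The other carriers were as low, with IGFBP5 at most at 0.07 FPKM, the acid-labile subunit IGFALS at most at 0.07 and IGFBPL1 at most at 0.04.

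Proteins that share the amino-terminal domain of the IGFBPs split. Of 11 listed genes 6 were tested, 2 rose and 2 fell, with a median of -0.11. CYR61 and CTGF, matricellular proteins of the CCN family, fell from 73.4 ± 0.615 to 13.5 ± 0.559 FPKM, -2.36 on the log2 scale (SE 0.061, adjusted p = 4.71e-05) and from 3.35 ± 0.156 to 0.975 ± 0.191 FPKM (-1.1, SE 0.108, adjusted p = 0.00179). NOV, the third member of the same family, rose from 18.9 ± 0.750 to 32.3 ± 0.714 FPKM (0.75, SE 0.063, adjusted p = 0.00134). KAZALD1, also called IGFBP-rP10, rose from 4.39 ± 0.608 to 6.19 ± 0.247 FPKM (0.42, adjusted p = 0.0342). Without control replicate 1 or control replicate 2 the only call left was a fall, 1 and 1 gene.

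Of 12 genes of IGFBP proteolysis 8 were tested, 3 rose and 2 fell, with a median of 0.17. STC1, which in biochemical work inhibits the IGFBP4 protease PAPPA, rose from 6.17 ± 0.615 to 24.2 ± 2.62 FPKM, 1.81 on the log2 scale (SE 0.099, adjusted p = 0.000434). PAPPA itself had 13.11 and 15.34 FPKM in the controls and 16.03 and 12.65 after GMI (0.01), with overlapping groups, and STC2, the other stanniocalcin, went from 134 ± 1.83 to 130 ± 2.33 FPKM (-0.05), both named outside the rule. PLAU, urokinase, rose from 191 ± 0.438 to 357 ± 13.3 FPKM (0.90, adjusted p = 0.000565), and the lysosomal protease gene CTSD from 497 ± 21.6 to 628 ± 1.02 FPKM (0.34, adjusted p = 0.0137). MMP7, matrilysin, fell from 5.10 ± 0.311 to 2.98 ± 0.014 FPKM (-0.62, adjusted p = 0.00568). Without control replicate 1 or 2 the calls of a fall were lost and fewer genes were called higher, with list medians of 0.12 and 0.20.

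Of 6 surface proteins that bind IGFBPs, 2 rose and 0 fell (0 also at an unadjusted p under 0.05 in the limma fit). These were the receptor gene LRP1, from 14.7 ± 0.064 to 19.7 ± 1.98 FPKM, 0.39 on the log2 scale (adjusted p = 0.0240), and the integrin subunit gene ITGB3, from 2.01 ± 0.276 to 3.52 ± 0.085 FPKM (0.59, adjusted p = 0.0116). Without control replicate 1 or 2 these calls were lost, with list medians of 0.18 and 0.13.

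Among 16 genes of receptors, adaptors and their regulators 12 were tested, 1 rose and 2 fell, with a median of -0.09. M6PR, the smaller mannose 6-phosphate receptor, rose from 50.7 ± 1.39 to 61.5 ± 1.41 FPKM, 0.27 on the log2 scale (adjusted p = 0.0255). GRB14, an adaptor that inhibits the insulin receptor, fell from 10.5 ± 0.007 to 6.16 ± 0.233 FPKM (-0.69, SE 0.070, adjusted p = 0.00229), and the adaptor gene SHC1 from 44.2 ± 0.509 to 31.8 ± 4.43 FPKM (-0.47, adjusted p = 0.0213). INSR, the insulin receptor, went from 1.15 ± 0.057 to 1.41 ± 0.028 FPKM (0.16) and did not pass, while INSRR and IRS4 were listed at 0 in every library. Of the rest GRB2, GRB10, SH2B1, SH2B2, PTPN1, SOCS2, SOCS3 and NEDD4 did not pass (-0.26 to 0.19), and GAB1 and SOCS1 were below the filter. With control replicate 1 or 2 left out the calls of this list were lost, and its median was -0.12 and -0.06.

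The kinase chain lies below the substrates. Of 28 PI3K, AKT, mTOR and FOXO genes 21 were tested, 20 did not pass, 1 rose and 0 fell (2 higher and 2 lower at an unadjusted p under 0.05), beside 9.30% and 6.12% of all tested genes, with a median of 0.03. FOXO4 rose from 0.445 ± 0.049 to 1.01 ± 0.007 FPKM, 0.47 on the log2 scale (adjusted p = 0.0368). It passed the filter through the GMI libraries alone, and it did not pass the test with a pseudocount of 0.1, without the filter or without any 1 library.

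Of 21 genes known as FOXO targets outside the 10, 15 were tested, 8 rose, 1 fell and 6 did not pass, beside 9.30% called higher and 6.12% lower over all tested genes, with a median of 0.28. FBXO32, a ubiquitin ligase subunit of muscle atrophy, rose from 1.06 ± 0.092 to 2.22 ± 0.163 FPKM, 0.65 on the log2 scale (adjusted p = 0.00978). CCNG2, a cyclin linked to cell cycle arrest, rose from 1.19 ± 0.085 to 2.49 ± 0.403 FPKM (0.67, adjusted p = 0.0129), and KLHL24 from 0.80 ± 0.028 to 1.91 ± 0.346 FPKM (0.69, adjusted p = 0.0135). GADD45A, a stress-induced growth arrest gene, fell from 37.3 ± 0.438 to 28.4 ± 1.41 FPKM (-0.39, adjusted p = 0.0107). KLHL24 and 1 other of the 8, BCL6, named outside the rule, passed the filter through the GMI libraries alone. The calls of a rise were all lost without control replicate 1 or 2, and fewer were left without GMI replicate 1 or 2. The list's median log2 fold change was 0.27 and 0.32 without control replicates 1 and 2. It was 0.37 and 0.27 without GMI replicates 1 and 2.

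Of 14 transcription factors known to act on IGFBP1 in liver or other cells 12 were tested, 2 rose and 2 fell, with a median of 0.13. ATF4, of the integrated stress response, rose from 139 ± 4.48 to 194 ± 4.51 FPKM, 0.48 on the log2 scale (SE 0.057, adjusted p = 0.00398), and USF2 from 33.2 ± 2.43 to 45.5 ± 1.48 FPKM (0.44, adjusted p = 0.00992). NR3C1, the glucocorticoid receptor, fell from 18.6 ± 1.34 to 14.4 ± 0.028 FPKM (-0.35, adjusted p = 0.0228). The calls of this list were lost without control replicate 1 or 2, where its median was 0.10 and 0.15. The 3 IGF2 mRNA binding proteins had log2 fold changes of -0.34 to -0.23, and 0 passed (3 lower at an unadjusted p under 0.05).

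**Figure D5:**
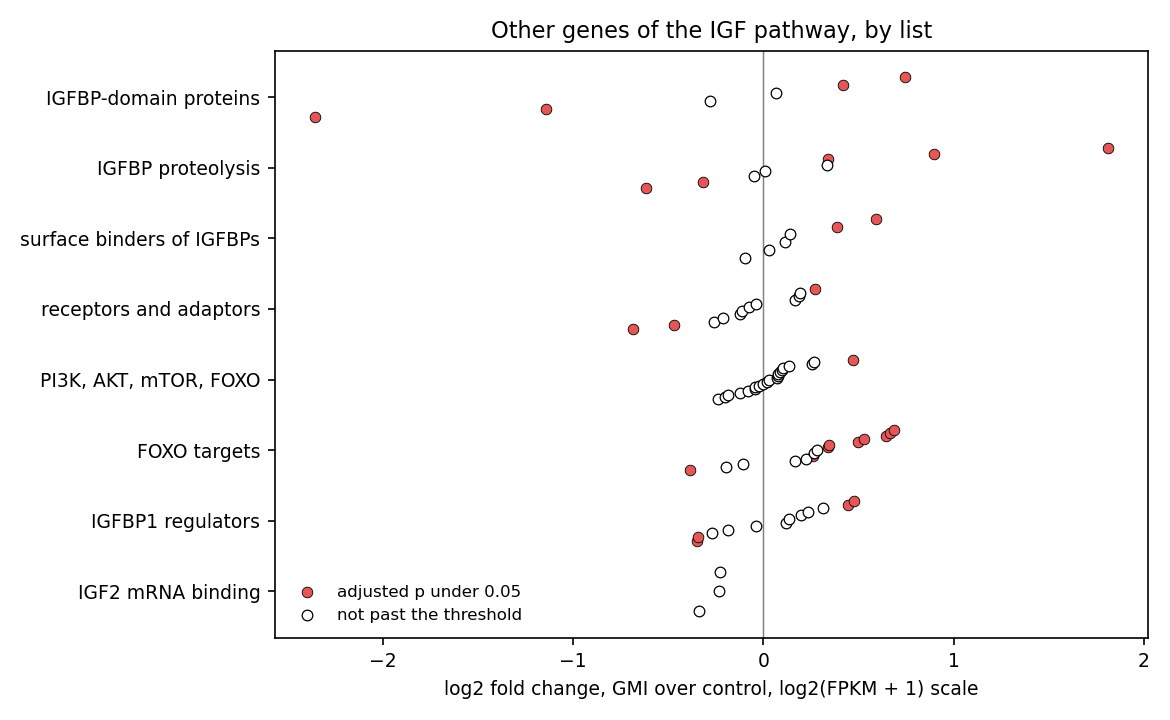
Log2 fold changes (GMI over control) of the tested genes of 8 lists, 1 point a gene, filled where the adjusted p was under 0.05. Most points lie between -0.5 and 0.7; CYR61 at -2.36, CTGF at -1.1 and STC1 at 1.81 lie apart.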

How the data were processed

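The 4 libraries of A549 RNA, 2 control and 2 GMI, were grouped by their labels. The authors deposited FPKM values to 2 decimals for 57905 genes, 1 file a library, per the file headers. The submitters' processing notes name HISAT2 2.0.1, HTSeq 0.6.1, cutadapt 1.9.1, the demultiplexer bcl2fastq 2.17.1.14 and build GRCh37. Annotation release, strand setting and gene lengths: not given in the sources used here. Genes with FPKM of at least 1 in at least 2 libraries, 11598, were fitted with limma 3.58.1 in R 4.3.3 on log2(FPKM + 1). The variance prior followed a trend in mean level, and the design held the group alone. The residual degrees of freedom were 2 and the prior ones 4.69. Benjamini-Hochberg adjustment ran over all tested genes, with a threshold of 0.05. The fit was tested on simulated data. Tables and figures used Python 3.11.15, numpy 2.4.6, pandas 2.3.3 and matplotlib 3.10.9.

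Library denominators were those at which most FPKM values below 20 of genes no longer than 200 nt were whole multiples of 1 fragment (95.8% to 96.8% within 0.006 FPKM). Fragment numbers of genes use these and GENCODE 29 exon lengths, on another build, so they are approximate, and their error covers counting only. Replicates differed beyond counting (chi-square per degree of freedom 4.86 for control and 9.59 for GMI), so none was a plain copy of another. That does not tell whether they came from different cultures or RNA preparations.

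The 10 genes, the lists and the tests were chosen with earlier results of these data known. All 10 genes are named. From each list up to 4 genes past the threshold with the smallest adjusted p are named, except 1 not reported here, and all ligands, other binding proteins, receptors and adaptors. The 5 genes closest to IGFBP1 are named. PECAM1, an endothelial marker, was not analysed here. Alternatives were 2 other scalings, another pseudocount, 2 other filters, no trend, a replicate block and leaving out each library.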

Additional observations from a re-analysis of the deposited data

How the results depend on the processing

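No log2 fold change of the 10 genes changed sign in any of the 109 values under the alternatives run. Of these values 103 moved by less than 1 SD, taken as the SD of that gene estimated by the limma fit. The 6 that moved further came from leaving out 1 library (IGFBP1 and IGF2R for a GMI library, IRS1 for a control). The counts of calls moved more. With a filter of 5 FPKM in 2 libraries 1773 genes were called over all, out of fewer tested genes. Over all genes 1789 were called, 1 without the filter on low values (3733 and 4500 had an unadjusted p under 0.05 in limma), and 45 to 1369 when 1 library was left out (74 and 45 without control replicates 1 and 2, 1369 and 945 without GMI replicates 1 and 2). Of the 10 genes 5 were called, 0 without the filter (limma, 7 higher and 1 lower at an unadjusted p under 0.05), 8 at 5 FPKM in 2 libraries, 3 with no mean-variance trend, 4 with median centring, and 1 to 3 when 1 library was left out. Of the 113 pathway genes 28 were called, 1 without the filter and 3 to 18 when 1 library was left out (3, 3, 18 and 12 in the same order). A fit without 1 library assumes that the lone library of its group varies like the other group. The groups share replicate numbers, but same-numbered libraries did not deviate together (correlation -0.044 across genes), so the numbers were not taken as pairs. With the replicate block 2000 genes, 4 of the 10 and 30 of the pathway genes were called, with IGF2R gained and IGFBP4 and IGFBP6 lost among the 10. The causes of these shifts were not tested. With 2 libraries a group the spread is poorly known, and genes under about 2 FPKM, IGFBP7 and the short SNORD63 rest on few fragments.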
